A study of Homo sapiens with 4 samples.

Results

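The genes described here drive cells from the end of DNA replication through G2 and mitosis, and were followed in U87MG cells silenced for caspase-2. U87MG is an established human glioblastoma line, and its total RNA was hybridized to 4 Affymetrix Human Gene 1.0 ST arrays. Of these, 2 came from cells transfected with a siRNA against CASP2 and 2 from cells transfected with a control siRNA. The labels number the arrays within each group as biological replicates. All cells were grown in serum-containing medium and received oligos from the same supplier, and in the study's methods the control oligo of that supplier is a mutated form of the CASP2 oligo. Each group therefore rests on 1 cell line and 1 oligo, and the time between transfection and RNA isolation is not given for the arrays in the sources used here. The list holds 46 genes chosen by name, with earlier results of these data known. Its members were all probe sets whose single gene symbol is on the list, which gave 46 probe sets for 45 genes, of 32321 probe sets in all and 18404 genes with such a probe set. BIRC5 had 2 of these probe sets, and CENPA had none, since its probe set is also annotated to SLC35F6 and was therefore not used.

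Entry into mitosis is driven by CDK1 bound to A-type and B-type cyclins, which CDC25 phosphatases switch on. Polo-like and Aurora kinases then build the spindle, kinetochores tie chromosomes to it, and the spindle checkpoint holds back the anaphase-promoting complex until every chromosome is attached. Most of these genes are transcribed in G2 under FOXM1, B-MYB and the MuvB complex, so that in a growing culture their summed mRNA follows the share of cells in G2 and mitosis. In RNA from a whole culture, fewer cells in these phases and less mRNA per cell cannot be told apart.

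The promoters of several members are shown because such genes carry a pair of known elements, the cell cycle genes homology region (CHR), bound by MuvB, and the CCAAT box, bound by NF-Y. HMMR, NUF2 and CDC25B are the 3 members with the smallest p-values below, while CCNB2 and PLK1, chosen after their values were seen, hold both elements and differed little between the groups. The sequences are the 110 bases before the RefSeq transcription start (GRCh38.p14), read 5′ to 3′ on the strand of the gene, with CHR letters (TTTGAA or TTCGAA) and CCAAT letters in capitals on either strand. They lie at chr5:163460522-163460631 (+) for HMMR, chr1:163321844-163321953 (+) for NUF2, chr20:3786841-3786950 (+) for CDC25B, chr15:59105036-59105145 (+) for CCNB2 and chr16:23678779-23678888 (+) for PLK1.
HMMR: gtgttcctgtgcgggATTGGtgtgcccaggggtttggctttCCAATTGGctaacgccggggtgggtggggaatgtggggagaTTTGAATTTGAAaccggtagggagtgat
NUF2: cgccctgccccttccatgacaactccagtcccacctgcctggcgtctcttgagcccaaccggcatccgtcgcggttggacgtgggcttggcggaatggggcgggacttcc
CDC25B: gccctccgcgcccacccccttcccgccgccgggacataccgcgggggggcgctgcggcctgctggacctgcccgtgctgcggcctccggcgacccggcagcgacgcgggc
CCNB2: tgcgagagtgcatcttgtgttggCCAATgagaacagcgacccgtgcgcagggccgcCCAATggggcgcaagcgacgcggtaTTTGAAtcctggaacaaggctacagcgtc
PLK1: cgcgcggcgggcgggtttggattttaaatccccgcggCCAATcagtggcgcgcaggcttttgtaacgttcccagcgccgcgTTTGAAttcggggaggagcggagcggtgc
In HMMR the 2 CHR matches stand side by side, and of its 3 CCAAT matches in this stretch a pair overlaps on opposite strands. CCNB2 holds 1 CHR match and 2 CCAAT matches, PLK1 holds 1 of each, and NUF2 and CDC25B hold none.

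The deposited values are log2 values from Robust Multi-Array Average (RMA) normalization, and all differences are given as the CASP2 siRNA mean minus the control siRNA mean on this scale. Differences were tested with limma, whose estimate of the spread of 1 probe set draws on that of the others, and p-values were adjusted by Benjamini-Hochberg over all 32321. CASP2 itself, the silenced gene, had log2 values of 8.79 and 8.52 with the CASP2 siRNA and 10.74 and 10.69 with the control siRNA, a difference of -2.06 (SE 0.13) with an unadjusted p of 4.0e-05 and an adjusted p of 0.9999 from limma. CASP2 reached its lowest adjusted p over the alternatives, 0.062, when limma used a trended, robust prior. Among glial and mesenchymal genes, VIM, CD44 and FN1 had mean values of 11.9 or more in both groups, while NES, GFAP, SOX2, OLIG2 and S100B had means of 6.56 or less in both. CDKN2A, CDKN2B and MTAP, which the line is known to have lost, had means of 6.09 or less, and the immune, endothelial, epithelial and hepatocyte markers PTPRC, CD14, PECAM1, CDH5, EPCAM and ALB of 5.69 or less in both. The median of all probe sets was 6.18 and 6.28 on the 2 silenced arrays and 6.21 on each control array. The silenced arrays differed more from each other than the controls did, with a standard deviation of the gap over all probe sets of 0.348 for the CASP2 siRNA and 0.205 for the control siRNA. No probe set passed an adjusted p of 0.05 by limma, 979 had an unadjusted p under 0.05, and the t-test of the study also gave 0 after adjustment. With 2 arrays a group, the smallest two-sided p that an exact permutation test allows is 0.333, so none is given for single genes.

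G2 and mitosis mRNAs stayed close to their control levels in silenced cells. Of the 46 probe sets, 39 had a value below 0, against 49.3% of all probe sets. The median difference was only -0.074, against 0.0022 over all probe sets. Most members are bright, as 41 of the 46 are among the 8080 probe sets above the upper quartile of level. Of those 8080, 57.1% were below 0, with a median of -0.015. No member passed the selection rule of the study (more than 1.5-fold, unadjusted p under 0.05). Of all probe sets 0.693% did, and of the bright 8080 0.124%. The 95% confidence interval lay within a 1.5-fold change in either direction for 44 of the 46 (95.7%). This held for 75.7% of all probe sets and 92.9% of the bright 8080. The exceptions among the members were CDK1 and NUF2. With the t-test of the study, whose intervals are wider, 20 of the 46 lay within it. The largest differences were -0.39 for NUF2 and 0.27 for CDC25B, and 41 of the 46 differed by less than 0.2. So did 83.2% of all probe sets and 91.1% of the bright 8080. By these 2 limits of size, the members thus stayed about as close to the controls as bright probe sets in general. The limits take no account of direction, in which the members differed from them: 84.8% were below 0 against 57.1%, with a median of -0.074 against -0.015. Each member had a limma adjusted p of 0.9999.

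**Figure D1:**
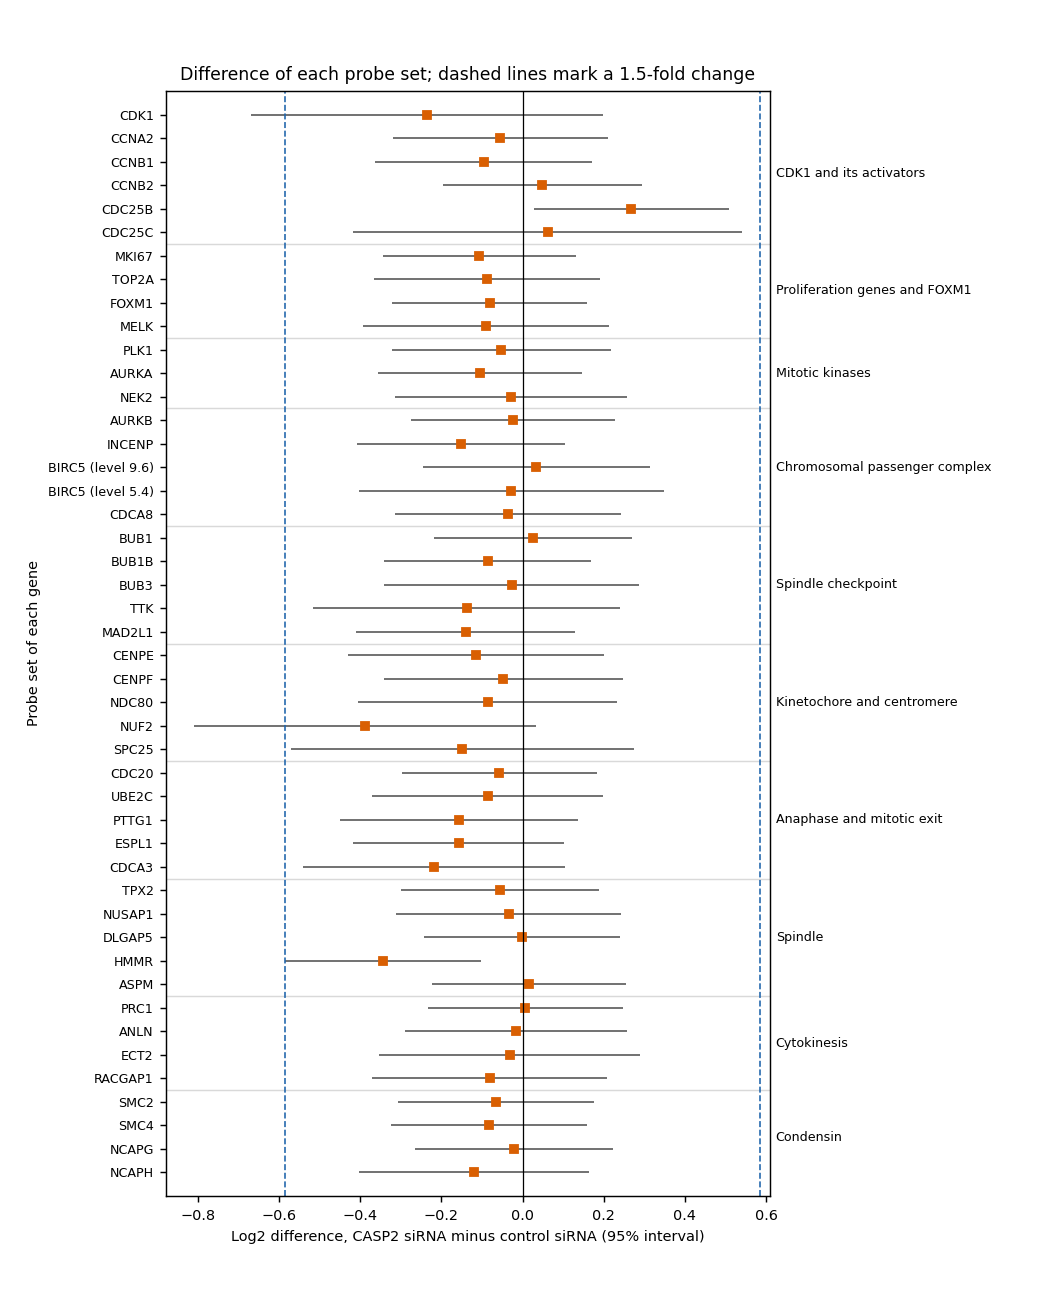
Log2 difference between CASP2 siRNA and control siRNA means (x axis) of each G2 and mitosis probe set (y axis, by role, roles at the right), with limma 95% confidence intervals as bars and a 1.5-fold change as dashed lines; the 2 BIRC5 probe sets are told apart by their control level. All but those of CDK1 and NUF2 lie between the dashed lines, and only HMMR, below 0, and CDC25B, above 0, have intervals that leave out 0.

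The 2 silenced arrays did not show the same picture. On CASP2 siRNA replicate 1 the median member lay 0.012 above the control mean and 20 of the 46 probe sets were below it, against 49.6% of all probe sets. On CASP2 siRNA replicate 2 the median was -0.12 and 43 of the 46 were below it, against 50.4% of all probe sets. In 43 of the 46 replicate 2 lay below replicate 1, against 53.4% of all probe sets, and the median gap between them was -0.147, while the 2 control arrays differed by a median of 0.033 in either direction. Without CASP2 siRNA replicate 2 the count of members below 0 was 20, and without CASP2 siRNA replicate 1 it was 43, so the count of 39 rests on replicate 2. Replicate 2 was lower for bright probe sets in general: among the 8080 probe sets above the upper quartile, which hold 41 of the 46 members, its median was -0.053 and 65.2% lay below the control mean, against 0.019 and 42.1% for replicate 1. After cyclic loess normalization, which acts on level-dependent gaps between arrays, 37 of the 46 members were below 0 and the median was -0.059. These values take both silenced arrays together, and the cause of the gap between the silenced arrays was not tested. Both silenced arrays lay below both control arrays for 18 members, against 15.1% of all probe sets and 22.8% of the 8080 bright ones. They lay above both for CCNB2 and CDC25B alone, against 14.5% of all probe sets and 16.4% of the 8080.

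**Figure D2:**
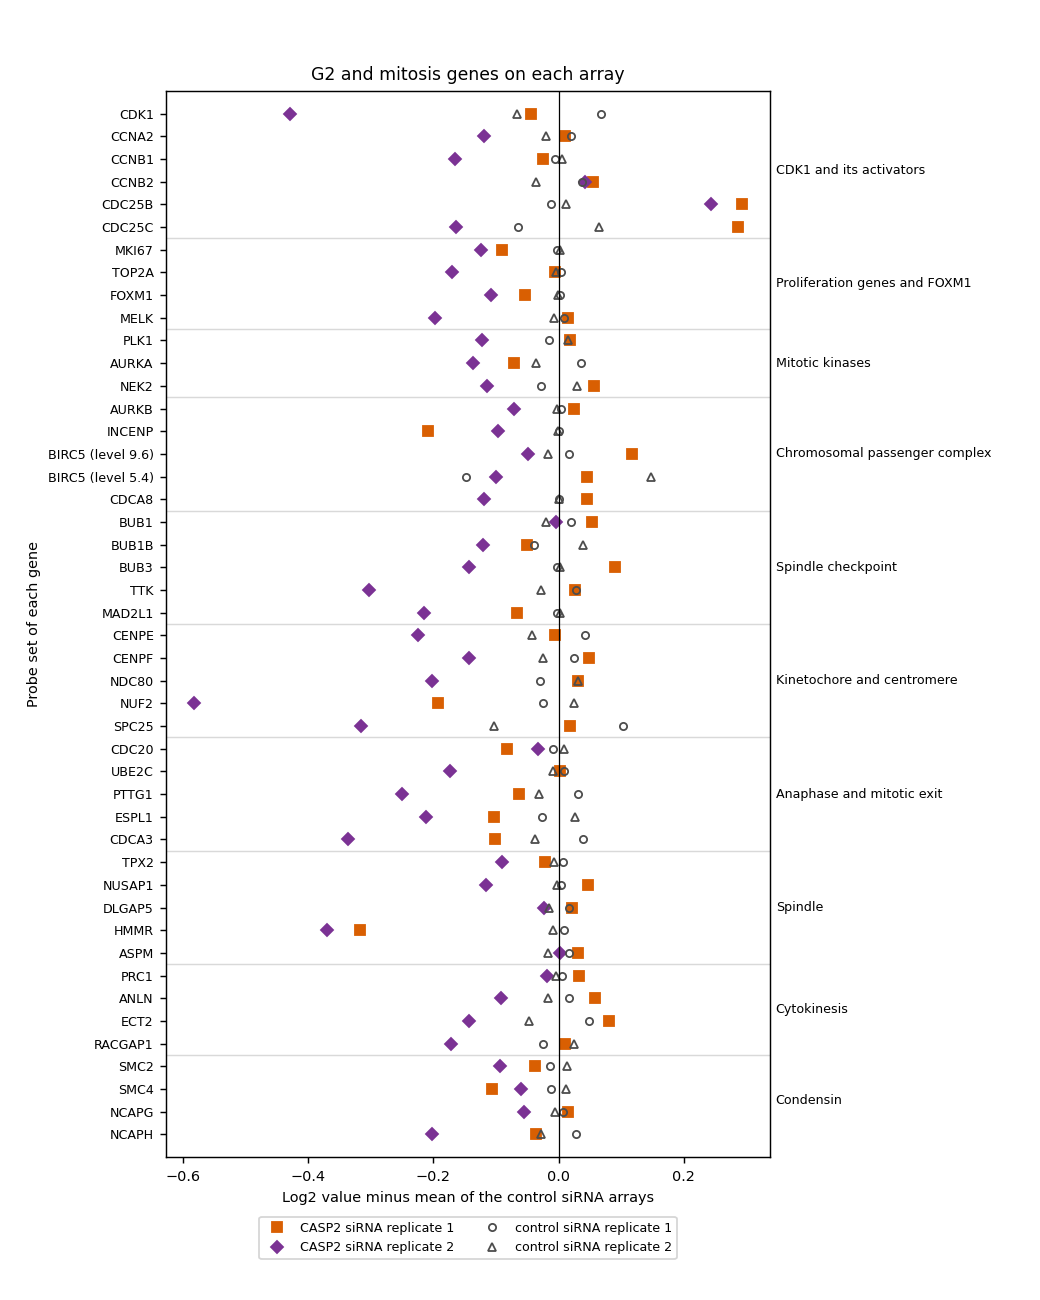
Log2 value of each G2 and mitosis probe set after subtraction of the control siRNA mean (x axis), by gene and role (y axis); filled squares and diamonds are CASP2 siRNA replicates 1 and 2, open circles and triangles control siRNA replicates 1 and 2. The squares scatter around 0 with 20 of 46 below it, the diamonds lie below 0 for 43 of 46, and HMMR and NUF2 have both filled symbols well to the left of the open ones.

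CDK1 and its activators had 3 of 6 probe sets below 0 and a median of -0.0030. CDC25B, the phosphatase that starts CDK1 activation in late G2, had log2 values of 9.55 and 9.50 with the CASP2 siRNA and 9.24 and 9.27 with the control siRNA. Both silenced arrays lay above both controls and close to each other. The difference was 0.27 (SE 0.090, 95% confidence interval 0.027 to 0.51), or 1.20-fold, with an unadjusted p of 0.036 and an adjusted p of 0.9999 from limma. It was the only member that was higher with an unadjusted p under 0.05, as were 1.54% of all probe sets, and it missed 0.05 with the t-test of the study, after centring of the arrays, with the replicate block, and without either control array or CASP2 siRNA replicate 1. CDK1, the kinase at the centre of mitotic entry, had 9.46 and 9.07 with the CASP2 siRNA and 9.57 and 9.44 with the control siRNA. Only replicate 2 lay below both controls, and the difference of -0.24 (SE 0.16, interval -0.67 to 0.20) was smaller than the gap of 0.39 between the 2 silenced arrays. The cyclin genes CCNA2, CCNB1 and CCNB2 had -0.054, -0.096 and 0.048. CDC25C, another activating phosphatase, had 7.75 and 7.30 with the CASP2 siRNA and 7.40 and 7.53 with the control siRNA, so that the silenced arrays lay on either side of the controls.

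Among the proliferation genes, all 4 probe sets had a value below 0, with a median of -0.089. MKI67, which encodes the Ki-67 antigen of cycling cells, had 10.22 and 10.19 with the CASP2 siRNA and 10.31 and 10.32 with the control siRNA. The groups did not overlap, and the difference was -0.11 (SE 0.089, 95% interval -0.34 to 0.13). FOXM1, the transcription factor that drives many of these genes, had 11.57 and 11.52 with the CASP2 siRNA and 11.63 and 11.62 with the control siRNA, a difference of -0.081 (SE 0.090). TOP2A, the topoisomerase that untangles sister chromatids, had -0.088, and the kinase gene MELK had -0.091. None of the 4 had an unadjusted p under 0.05.

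The mitotic kinases PLK1, AURKA and NEK2 had a median of -0.052. AURKA, a kinase of centrosomes and spindle poles, had 11.29 and 11.23 with the CASP2 siRNA and 11.40 and 11.33 with the control siRNA. Both silenced arrays lay just below both controls, and the difference was -0.10 (SE 0.094, 95% interval -0.36 to 0.15). PLK1, the polo-like kinase of centrosome maturation and mitotic exit, had 12.14 and 11.99 with the CASP2 siRNA and 12.10 and 12.13 with the control siRNA. One silenced array lay above and the other below the controls, with a difference of -0.052 (SE 0.10), which was 0.019 without CASP2 siRNA replicate 2. NEK2, a kinase that parts the centrosomes, had -0.029.

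The chromosomal passenger complex corrects faulty spindle attachments and then directs cytokinesis. INCENP, its scaffold, had 8.99 and 9.11 with the CASP2 siRNA and 9.20 on each array with the control siRNA, a difference of -0.15 (SE 0.096, 95% interval -0.41 to 0.10). It was among the 3 members, with CDC20 and SMC4, in which CASP2 siRNA replicate 1 was the lower of the silenced arrays. CDCA8, which encodes Borealin, had 10.42 and 10.25 with the CASP2 siRNA and 10.37 on each array with the control siRNA. Its silenced arrays lay on either side of the controls, and the difference of -0.037 was 0.046 without CASP2 siRNA replicate 2. AURKB, the kinase of the complex, had -0.023. The 2 probe sets of BIRC5, which encodes Survivin, had 0.034 and -0.027, and on the dimmer one the control arrays, at 5.27 and 5.56, enclosed both silenced arrays.

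The spindle checkpoint genes had a median of -0.086, with 4 of 5 below 0. MAD2L1, which encodes the checkpoint protein MAD2 that restrains CDC20, had 10.12 and 9.97 with the CASP2 siRNA and 10.19 on each array with the control siRNA. Both silenced arrays lay below both controls, and the difference was -0.14 (SE 0.10, 95% interval -0.41 to 0.13). TTK, the checkpoint kinase also called MPS1, had 8.80 and 8.47 with the CASP2 siRNA and 8.80 and 8.74 with the control siRNA. One silenced array lay level with a control array, and the difference of -0.14 (SE 0.14) became 0.026 without CASP2 siRNA replicate 2. BUB1B, which encodes BUBR1, had -0.086, while BUB3, its binding partner, and BUB1, a checkpoint kinase, had -0.027 and 0.025.

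All 5 measured kinetochore and centromere probe sets had a value below 0, with a median of -0.11. NUF2, a subunit of the NDC80 complex that grips microtubules, had 8.18 and 7.79 with the CASP2 siRNA and 8.35 and 8.40 with the control siRNA. Both silenced arrays lay below both controls, replicate 2 by far the more. The difference was -0.39 (SE 0.16, 95% interval -0.81 to 0.034), or 1.31-fold, with an unadjusted p of 0.064 and an adjusted p of 0.9999 from limma, and with either silenced array left out it was -0.58 or -0.19. Of the other subunits of the complex on the list, NDC80 itself had -0.086 and SPC25 had -0.15, each with CASP2 siRNA replicate 1 above the control mean. CENPE, a motor of chromosome alignment, had 9.40 and 9.18 with the CASP2 siRNA and 9.45 and 9.36 with the control siRNA, a difference of -0.11 (SE 0.12). CENPF, a large coiled-coil protein of the outer kinetochore, had -0.048.

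Genes of anaphase and mitotic exit had the lowest median among the role groups, -0.16, with all 5 below 0. Both silenced arrays lay below both controls for 4 of the 5. They did so for 3 of 4 proliferation genes, 3 of 4 condensin genes and 18 of the 46 member probe sets. The share was 15.1% of all probe sets and 22.8% of the 8080 bright ones. CDCA3, a trigger of mitotic entry that the anaphase-promoting complex degrades, had 8.80 and 8.56 with the CASP2 siRNA and 8.94 and 8.86 with the control siRNA. The difference was -0.22 (SE 0.12, 95% interval -0.54 to 0.10), close to the gap of 0.23 between the silenced arrays. ESPL1, the separase that cuts cohesin, had 8.42 and 8.31 with the CASP2 siRNA and 8.50 and 8.55 with the control siRNA, a difference of -0.16 (SE 0.097, interval -0.42 to 0.10). PTTG1, the securin that holds separase inactive, had -0.16 as well, but near-identical copies of this gene could share its probes. CDC20, the activator of the anaphase-promoting complex, and UBE2C, its ubiquitin-conjugating enzyme, had -0.058 and -0.086.

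The spindle genes had a median of -0.035, with 4 of 5 below 0 and HMMR the lowest. HMMR, which encodes a hyaluronan receptor that also organizes spindle poles, had 8.87 and 8.82 with the CASP2 siRNA and 9.20 and 9.18 with the control siRNA. The arrays of each group lay close together and the groups did not overlap. The difference was -0.34 (SE 0.090, 95% interval -0.58 to -0.10), or 1.27-fold, with an unadjusted p of 0.016 and an adjusted p of 0.9999 from limma. It was the only member that was lower with an unadjusted p under 0.05, as were 1.49% of all probe sets, and it missed 0.05 with the t-test of the study and without either control array. With each array left out in turn it ranged from -0.37 to -0.32. TPX2, the activator of Aurora A on the spindle, had 11.61 and 11.54 with the CASP2 siRNA and 11.64 and 11.62 with the control siRNA, a difference of -0.056 (SE 0.092, interval -0.30 to 0.19). NUSAP1, a microtubule-bundling protein, had -0.035, DLGAP5, a spindle protein also called HURP, -0.0012, and ASPM, a spindle pole protein, 0.016.

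The cytokinesis genes PRC1, ANLN, ECT2 and RACGAP1 had a median of -0.024, and none had groups that did not overlap. RACGAP1, of the central spindle, had 10.88 and 10.69 with the CASP2 siRNA and 10.84 and 10.89 with the control siRNA, a difference of -0.081 (SE 0.11). ECT2, the exchange factor that activates RhoA at the cleavage furrow, had 10.56 and 10.33 with the CASP2 siRNA and 10.52 and 10.43 with the control siRNA, so the silenced arrays enclosed the controls. For both genes the difference was above 0 without CASP2 siRNA replicate 2, at 0.0098 for RACGAP1 and 0.081 for ECT2. PRC1, which bundles the midzone microtubules, had 0.0069 (interval -0.23 to 0.25), and ANLN, which encodes the ring protein anillin, -0.016 (interval -0.29 to 0.26).

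The condensin genes compact chromosomes for mitosis, and all 4 had a value below 0 with a median of -0.074. NCAPH, the subunit that closes the condensin I ring, had 10.56 and 10.40 with the CASP2 siRNA and 10.63 and 10.57 with the control siRNA, a difference of -0.12 (SE 0.11, 95% interval -0.40 to 0.16). SMC4, a core ATPase, had 10.43 and 10.48 with the CASP2 siRNA and 10.53 and 10.55 with the control siRNA, a difference of -0.083 (SE 0.090). SMC2, its partner, had -0.066, and NCAPG, a further subunit of condensin I, had -0.021.

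Other genes of mitosis and the cell cycle were examined in 10 further lists, of which each gene with a probe set of its own was used. In the lists of CDK1 regulators, MuvB and DREAM, anaphase-promoting complex, other kinetochore, cohesin, other condensin, spindle and centrosome, and mitotic kinesin genes, the median difference lay between -0.13 and -0.022. In all 8 the median of CASP2 siRNA replicate 2 lay below that of replicate 1. The list of G1/S and replication genes had 28 of 30 probe sets below 0, against 49.3% of all probe sets and 57.1% of the bright 8080. Its median was -0.12, with medians of -0.0062 and -0.25 on silenced replicates 1 and 2. On replicate 1, 15 of the 30 lay below the control mean, and on replicate 2, 29 did. Of the CDK inhibitor genes that the line is not known to have lost, CDKN1A, which encodes p21, had -0.11, CDKN1B -0.016, CDKN1C -0.0039 and CDKN2D 0.025. These lists share the arrays of the 46 members, so their medians are not independent of those above.

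**Figure D3:**
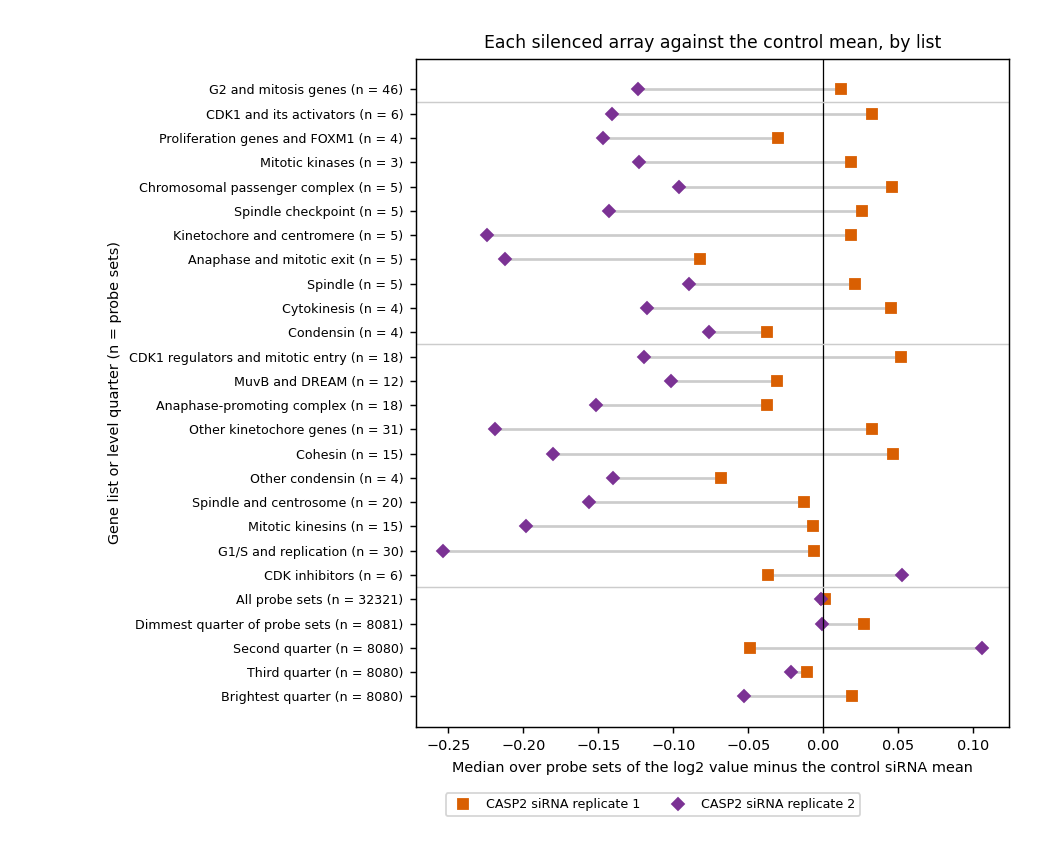
Median over the probe sets of each list, or of all probe sets ranked by level and cut at the quartiles (y axis), of the log2 value minus the control siRNA mean (x axis), for CASP2 siRNA replicate 1 (squares) and replicate 2 (diamonds). For the G2 and mitosis genes the medians are 0.012 and -0.12, for the G1/S and replication genes -0.0062 and -0.25, and for all probe sets they are 0.0013 and -0.0017; the CDK inhibitors include CDKN2A and CDKN2B, which the line is known to have lost.

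In these 10 lists no probe set passed an adjusted p of 0.05 by limma, or the thresholds of the study with the limma p. An unadjusted limma p under 0.05 was found for 1 probe set each of CKS1B, MIS18A and CCND1, which were lower, and of CDK6 and KIFC1, which were higher. Their lists held 18 probe sets for CKS1B, 31 for MIS18A, 30 for CCND1 and CDK6, and 15 for KIFC1. The remaining lists had none. Of all probe sets, 1.49% were lower and 1.54% higher with such a p. With the t-test of the study CKS1B, MIS18A, CDK6 and KIFC1 did not reach an unadjusted p of 0.05. CCND1 was not among the genes followed through the alternatives, so its p from that test is not given. Beside CDKN1A, given above, the gene with the smallest p in each list gave the following values. CKS1B, a small CDK1-binding subunit, had 11.12 and 10.87 with the CASP2 siRNA and 11.49 and 11.53 with the control siRNA in its brightest probe set, a difference of -0.51 (SE 0.12, 95% interval -0.84 to -0.18). Of its other probe sets, the brighter had -0.26 (SE 0.14) with an unadjusted limma p of 0.12. The dim one had 4.69 and 4.22 with the CASP2 siRNA and 4.40 and 5.31 with the control siRNA. Its groups overlapped, and the difference was -0.40 (SE 0.35) with an unadjusted limma p of 0.31. The p under 0.05 of CKS1B thus came from its brightest probe set alone. MIS18A, which helps to load CENPA at centromeres, had 8.27 and 8.18 with the CASP2 siRNA and 8.65 and 8.54 with the control siRNA, a difference of -0.37 (SE 0.10). In the brightest and next brightest CKS1B probe sets and in that of MIS18A the silenced arrays lay below both controls. CCND1, the G1 cyclin D1, which was named after its values were seen, had -0.25 (SE 0.090). CDK6, a G1 kinase, had 9.30 and 9.01 with the CASP2 siRNA and 8.77 and 8.72 with the control siRNA, a difference of 0.41 (SE 0.13). KIFC1, a minus-end kinesin, had 0.42 in a probe set with a control mean of 3.78, below the lower quartile of every array, and -0.025 in its brighter one. RBL2, the pocket protein of the DREAM complex, had -0.29, and NUMA1, a spindle pole organizer, -0.21. UBE2S, an elongating enzyme of the anaphase-promoting complex, had -0.19 and -0.12 in its 2 probe sets, and NCAPD2, of condensin I, had -0.15. ESCO1, a cohesin acetyltransferase, had 0.22.

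The promoter table used here matched 38 of the 46 members, all but FOXM1, AURKA, BIRC5, BUB3, TTK, UBE2C, TPX2 and RACGAP1. In the 250 bases before the start, CHR letters were found on either strand in 20 of the 38 (52.6%), against 14.3% of all 35116 promoters and 12.1% of those of protein-coding genes. CCAAT letters were found in 27 (71.1%), against 32.0% of all promoters, and both in 16 (42.1%), against 5.05%. The CHR matches of the members, 26 in all, began at a median of 33 bases before the start, and the 59 CCAAT matches at a median of 79 bases. The differences of members with and without these letters overlapped. The median difference was -0.058 in the 19 measured genes with CHR letters and -0.076 in the 18 without, with ranges of -0.34 to 0.048 and -0.39 to 0.27. With CCAAT letters it was -0.056 in 26 genes and without them -0.083 in 11. HMMR, with 2 CHR and 5 CCAAT matches in this window, and NUF2, with none, were the members with the lowest differences.

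**Figure D4:**
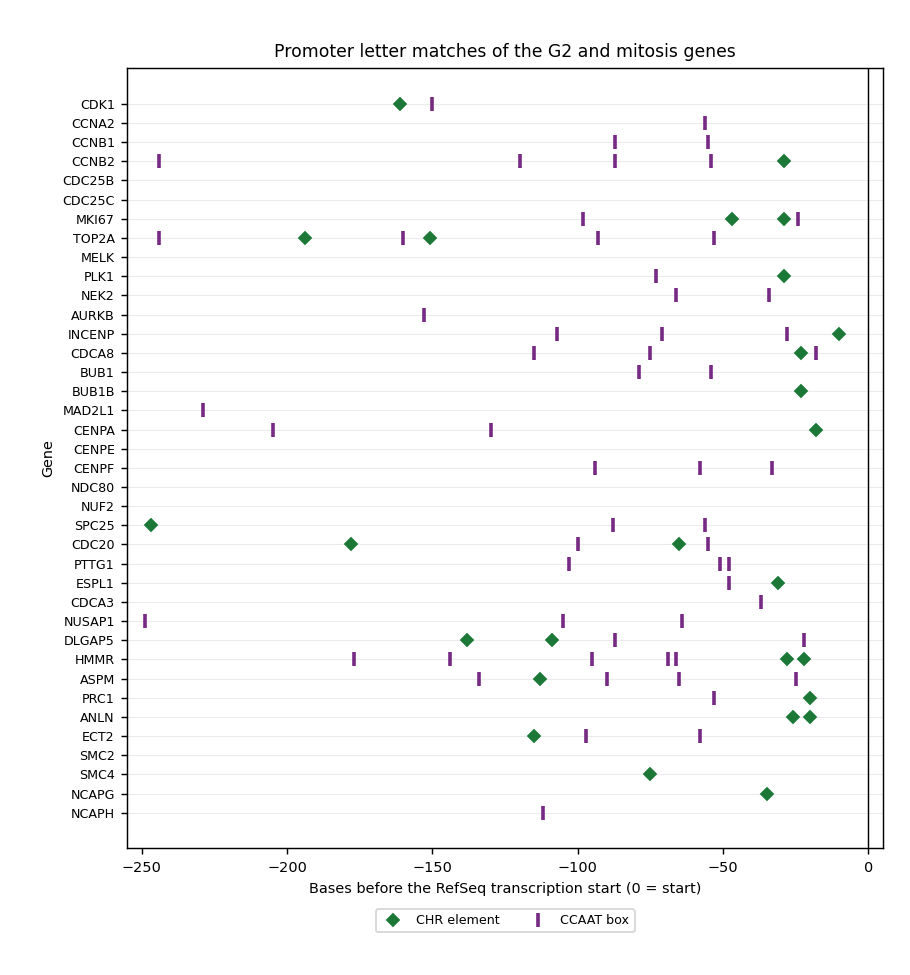
Position of each CHR match (diamonds) and CCAAT match (bars) in the 250 bases before the RefSeq start (x axis, bases from the start) for the 38 members in the promoter table (y axis); a symbol stands at the first base of the match. Most matches lie near the start, as 17 of 26 CHR and 41 of 59 CCAAT matches fall within the last 100 bases. The rows of NUF2 and CDC25B are empty, as are those of CDC25C, MELK, CENPE, NDC80 and SMC2.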

How the data were processed

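The authors normalized the 4 arrays by RMA (version not given in the sources used here). The deposited log2 values, 1 per probe set and array, were used unchanged for 32321 probe sets. RMA equalizes probe values between arrays, so a change of all genes one way is largely removed. Symbols came from the platform annotation (19158 probe sets with 1 symbol, 1388 with several) and were updated by gene ID through RefSeq (GRCh38.p14) where the ID matched (19128 of the 19158). The groups were compared by limma 3.58.1 in R 4.3.3 (lmFit, eBayes), two-sided, and p-values were adjusted over the whole table by Benjamini-Hochberg. The fit was tested on simulated data. The members and lists were chosen with earlier results of these data known. Named genes were the 2 of each role group and the 1 of each further list with the smallest p. Alternatives were the t-test of the study, which raises the standard deviation to at least the median of all, other normalizations and filters, a replicate block and each array left out. Precision is limited by the number of arrays, and p-values measure only the spread between these arrays. Labels give no batch.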

Additional observations from a re-analysis of the deposited data

How the results depend on the processing

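No alternative gave a member past the thresholds of the study, or any probe set past an adjusted p of 0.05. Leaving out 1 array at a time, the median difference of the G2 and mitosis genes ranged from -0.12 to 0.012, the number below 0 from 20 to 43, and the number with an unadjusted p under 0.05 from 0 to 5. The number with all remaining silenced arrays below all remaining controls ranged from 18 to 41, and the number above them from 2 to 19. These ranges do not follow 1 criterion, since each fit compared only the arrays left in it. Without CASP2 siRNA replicate 2, replicate 1 alone lay below both controls for 18 members and above both for 19. Without replicate 1, replicate 2 alone lay below both for 41. With all 4 arrays the counts were 18 below and 2 above. The number with an interval within a 1.5-fold change ranged from 21 to 46, the lowest without a control array. The extremes of the median and of the counts below and above came without one of the silenced arrays. Of 2 members with an unadjusted p under 0.05, the t-test of the study kept 0, centring each array on its median 1 and the replicate block 1, while a trended, robust prior and quantile normalization each gave 3, with NUF2 added. With the t-test of the study 20 intervals lay within a 1.5-fold change. Members above both controls numbered 5 after cyclic loess normalization and 1 after centring. The differences between replicates 1 and 2 correlated with r = 0.020 across probe sets between the groups. No shared replicate effect was visible, but this cannot tell whether arrays of the same number were handled together. Of 31 single genes, 26 kept their sign, and all 31 stayed above an adjusted p of 0.05, throughout; at an unadjusted 0.05 several crossed it, as HMMR, CDC25B, CKS1B, MIS18A, CDK6 and KIFC1 did with the t-test of the study. Without CASP2 siRNA replicate 1 and without replicate 2, PLK1 was at -0.12 and 0.019, CDCA8 at -0.12 and 0.046, TTK at -0.30 and 0.026, RACGAP1 at -0.17 and 0.0098 and ECT2 at -0.14 and 0.081. ECT2 was also at 0.017 without control siRNA replicate 1. The cause was not tested.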
